A study of Mus musculus with 12 samples.

Results

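Glycolysis is the chain of cytosolic enzymes that splits glucose to pyruvate, and lactate dehydrogenase reduces that pyruvate to lactate when carbon is not passed to mitochondria. Embryonic stem cells (ESCs), like many rapidly dividing cells, are known for a high glycolytic flux. The transcripts described here encode 10 enzymes of the chain, namely Hk1, Hk2, Gpi1, Pfkl, Pfkp, Aldoa, Tpi1, Eno1, Pkm and Ldha. They were chosen by name, found in the deposited count table through the GENCODE symbol of each gene identifier, and make up 10 of its 51559 rows. All 10 passed the filter on low counts, as 10 of the 14033 genes tested.

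The libraries came from mouse ESCs that were either wild-type (WT) or lacked Dgcr8 (Dgcr8 KO). Titles and genotype labels of the knockout libraries read DGCR8KO or DGCR8 KO, while their source field is spelled DDX8KO. DGCR8 partners the nuclease Drosha in cutting primary microRNA transcripts, so cells without it cannot make most microRNAs. All cells of both genotypes were grown in serum with LIF and the 2i inhibitors PD0325901 and CHIR99021, and all received 4-thiouridine (4sU) at 500 uM for 30 min before lysis. RNA that had incorporated 4sU was biotinylated and captured to measure nascent transcription (4sU libraries), and rRNA-depleted RNA gave the steady-state level (total libraries). The groups were WT total, KO total, WT 4sU and KO 4sU, with 3 replicates each and 12 libraries in all. The Dgcr8 KO cells were an existing knockout line, so the genotype effect cannot be told apart from other differences between the lines, and nothing in the labels says that replicates were separate cultures, so p-values measure the spread between these libraries.

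The main microRNAs that ESCs lose with Dgcr8 are those of the ESC-specific cell cycle (ESCC) family, which act on transcripts through a shared AAGUGC seed. A pair of mature family members is shown for that seed, with bases 2 to 8 in capitals, as given by RefSeq for GRCm38 (chr7:3220691-3220712 for miR-294 and chr3:127545275-127545297 for miR-302b, both on the + strand).
mmu-miR-294-3p: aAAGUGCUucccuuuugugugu
mmu-miR-302b-3p: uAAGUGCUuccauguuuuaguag
The complementary site AGCACTT or GCACTTA occurred in the longest 3′ UTR of 3 of the 10 glycolysis genes (30%), against 21.2% of 11810 tested genes with a 3′ UTR. The stretch around each site is shown because these are the only members with a 7-letter match to the microRNAs printed above. Capitals mark AGCACTT, and windows of 28 bases are given on the strand of the gene in mm10.
Hk1 (chr10:62268968-62268995, − strand): ggtatgcctatagtcccAGCACTTggga
Pfkp (chr13:6581370-6581397, − strand): taacatagttatttatcAGCACTTtatg
Ldha (chr7:46855142-46855169, + strand): agtcttccccgtgtcctAGCACTTcact
The site of Ldha began at base 19 of a 486-base 3′ UTR, that of Pfkp at base 81 of 1692 and that of Hk1 at base 932 of 1054. Gpi1 held the 6-letter core GCACTT with neither 7-letter form, which brought the count to 4 of 10 (40%) against 33.8% of tested genes. The base before that core is G, so GGCACTT there complements bases 2 to 8 (AAGUGCC) of miR-290a-3p, which also carries AAGUGC. That form was not part of the 7-letter counts. A match is a description of the letters, and binding was not measured.

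In the promoters, the same reading was made for CACGTG, the E-box bound by MYC-family factors, and for ACGTG, the core letters of the hypoxia response element, on both strands of windows from 250 bases before to 50 bases after each RefSeq start site. Every CACGTG also holds ACGTG, and such matches were counted only as CACGTG where positions are given. CACGTG was found in 1 of 10 genes, Ldha, against 8.09% of 27025 genes. ACGTG was found in 5 of 10, namely Hk1, Hk2, Aldoa, Pkm and Ldha, against 21.8%. A gene with several start sites counted if any of its windows matched. By window, ACGTG was found in 6 of 17 (35.3%) against 19.6% of 32851, and CACGTG in 1 of 17 (5.88%) against 7.15%. The E-boxes of Ldha and the match of Aldoa, the gene with the largest change, are shown with the match in capitals as it reads on the strand of the gene (GRCm38).
Ldha, -145 from the start site (chr7:46845648-46845675, + strand): gtgtcgcagcaCACGTGgagccactctt
Ldha, -48 from the start site (chr7:46845745-46845772, + strand): ggcccagcctaCACGTGggttcccgcac
Aldoa, -126 from the nearest start site (chr7:126799364-126799391, − strand): gtggctcgagtCACGTcctagcggggcg

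Total counts ranged from 4593914 to 9295245 per library. Dgcr8 itself, as counts scaled to a common library size with TMM factors (CPM), measured 101, 111 and 92.5 in the WT total libraries and 33.6, 34.1 and 32.0 in the KO total libraries, a log2 change of -1.60 (limma adjusted p = 6.63e-17). Its reads were lower in every KO library than in every WT library. The 8 ESC markers, among them Pou5f1, Sox2 and Nanog, summed to between 4270 and 6330 CPM. Fibroblast markers summed to at most 18 CPM in WT and 7.22 CPM in KO libraries, Col1a2, Col3a1, Lum and Postn had at most 3 counts in any library, and Postn was at 0 throughout. Primitive endoderm markers summed to at most 17.6 CPM in any library and primed and germ layer markers to at most 177 CPM. Several of these sums moved with genotype without overlap. The fibroblast sum was lower in KO in both library types, the primed and germ layer sum was 126 to 137 CPM in WT and 102 to 111 CPM in KO total libraries, the primitive endoderm sum was 8.59 to 10.4 and 7.01 to 8.08 CPM in the same libraries, and the ESC marker sum was 4880 to 4910 CPM in WT and 5670 to 6330 CPM in KO 4sU libraries. Their part in the results was not tested. Fewer cells expressing a gene and less of its RNA per cell cannot be told apart in such bulk libraries, and since spike-in rows held 1 count in all, every level is relative to its own library.

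In total RNA, glycolysis transcripts were on balance lower without Dgcr8, but not uniformly. Of the 10 genes, 6 fell (Hk2, Pfkl, Pfkp, Aldoa, Pkm and Ldha), Gpi1 and Tpi1 rose slightly, and Hk1 and Eno1 did not pass the test, at a limma adjusted p under 0.05. Falls of this kind were common, since 36.7% of all genes tested fell and 27.2% rose by the same rule. At the stricter rule that also asks for a log2 change over 1, Aldoa was the 1 gene called, against 7.82% of all genes called lower. The median change of the 10 genes was -0.31, beside -0.09 over all genes tested. In 6 genes all KO total libraries lay below all WT total libraries and in 1 gene above, as did 39.6% and 29.2% of all genes. Together they took 0.74% ± 0.0245 of all counts in WT total libraries and 0.553% ± 0.0193 in KO total libraries (SD, n = 3). Abundant genes weigh most in this share, and Aldoa alone fell from a mean of 2234 to 1110 CPM.

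**Figure D1:**
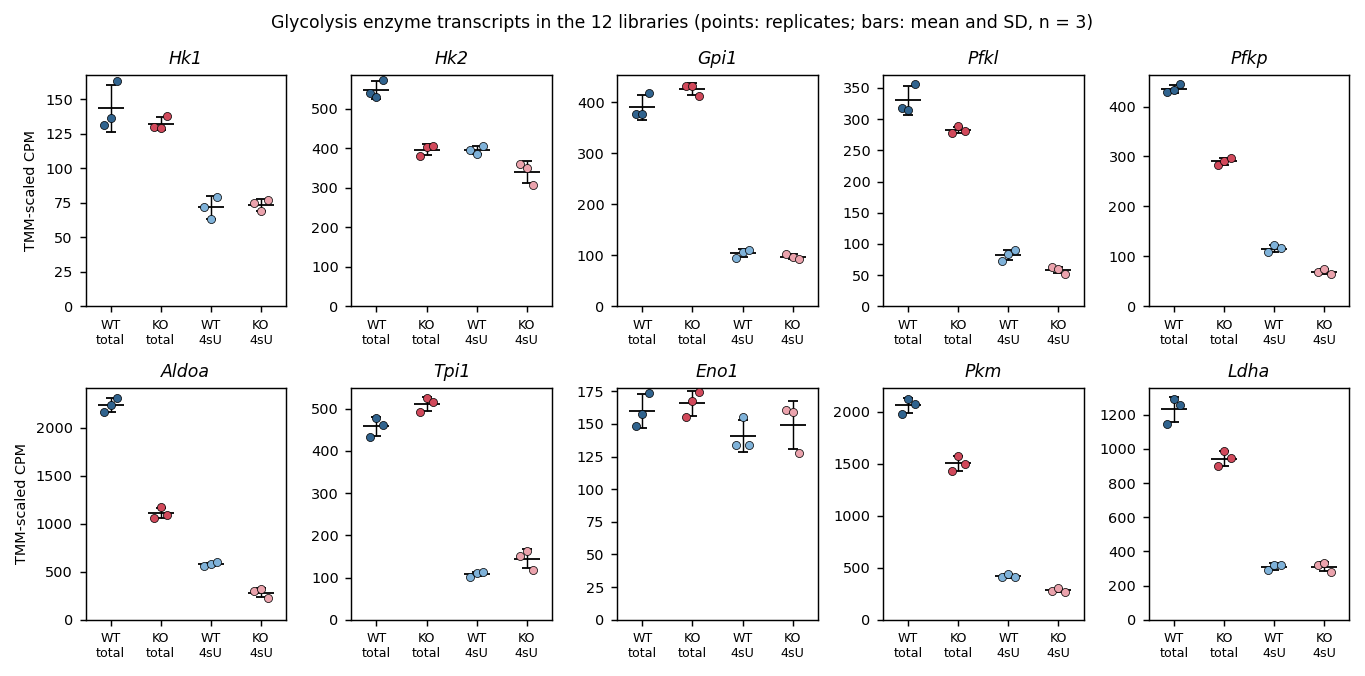
TMM-scaled CPM of each gene (y axes, from 0) in WT total, KO total, WT 4sU and KO 4sU libraries, with a point per library and bars for mean and SD (n = 3). Aldoa fell from 2160 to 2310 CPM in WT total libraries to 1063 to 1172 CPM in KO total libraries, whereas the values of Eno1 overlapped between genotypes.

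The hexokinases phosphorylate glucose and trap it in the cell, and the 2 forms behaved differently. Hk2, the inducible form prominent in muscle and in tumours (ENSMUSG00000000628.10, chr6:82725025-82774454, − strand), measured 539, 529 and 573 CPM in WT total libraries and 380, 404 and 405 CPM in KO total libraries. The groups did not overlap, and Hk2 fell by 0.47 on the log2 scale (limma adjusted p = 1.25e-09, SE 0.0504). Hk1, the widely expressed form bound to mitochondria (ENSMUSG00000037012.18, chr10:62268855-62379908, − strand), measured 132, 136 and 163 CPM in WT and 130, 129 and 138 CPM in KO. These values overlapped, and the log2 difference of -0.12 (SE 0.0698) did not pass the test (limma adjusted p = 0.142), though it reached -0.18 (0.045) without WT replicate 1. Per exon length within a library, Hk2 stood 3.30-fold above Hk1 in WT total RNA and 2.58-fold above it in KO total RNA, a difference of -0.35 in the log2 ratio (exact permutation p = 0.1, two-sided, the smallest that 3 against 3 allows).

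Glucose-6-phosphate isomerase, Gpi1 (ENSMUSG00000036427.5, chr7:34201330-34230336, − strand), converts the hexokinase product to fructose-6-phosphate. It measured 376, 376 and 418 CPM in WT total libraries and 432, 432 and 413 CPM in KO total libraries. The lowest KO value lay under the highest WT value. Gpi1 rose by 0.13 on the log2 scale (limma adjusted p = 0.028, SE 0.0503), but the edgeR quasi-likelihood test gave an adjusted p of 0.051, and the limma value was 0.147, 0.164, 0.0804 and 0.103 without WT replicate 1, WT replicate 2, KO replicate 1 and KO replicate 2 in turn.

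Phosphofructokinase commits the sugar to glycolysis and is its most tightly regulated step. Pfkp, the platelet form (ENSMUSG00000021196.14, chr13:6579768-6648777, − strand), measured 429, 433 and 445 CPM in WT total libraries and 283, 291 and 297 CPM in KO total libraries. Each KO value lay far under the WT values, and Pfkp fell by 0.59 on the log2 scale (limma adjusted p = 2.87e-12, SE 0.0483). Pfkl, the liver form (ENSMUSG00000020277.10, chr10:77986947-78009807, − strand), measured 319, 315 and 356 CPM in WT and 278, 288 and 281 CPM in KO. It fell by less, 0.22 on the log2 scale (limma adjusted p = 0.000849, SE 0.0564), again with no overlap. Their balance turned accordingly: per exon length Pfkp was 1.15-fold Pfkl in WT total RNA and 0.892-fold in KO total RNA, a difference of -0.36 in the log2 ratio (exact permutation p = 0.1, two-sided). The muscle form Pfkm, a lower-count gene outside the 10, rose by 0.56 (limma adjusted p = 1.21e-08).

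Aldolase A cleaves the doubly phosphorylated hexose into the triose phosphates. Aldoa (ENSMUSG00000030695.14, chr7:126795234-126808875, − strand) had the largest change of the 10 in both kinds of library. Total libraries held 2160, 2233 and 2310 CPM in WT and 1063, 1172 and 1094 CPM in KO. With every KO library at about the same low level, the log2 change was -1.01 (limma adjusted p = 4.75e-17, SE 0.0528), or 2.02-fold lower. The value sat at the limit of 1: it was -0.996 without WT replicate 3, -0.98 without KO replicate 1 and -0.99 without KO replicate 3, and -0.98 with the RLE scaling of DESeq2, each of which ends the call by the stricter rule. The direction and the adjusted p under 0.05 did not depend on these settings.

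Triose phosphate isomerase keeps the triose products of aldolase in a single pool. Tpi1 (ENSMUSG00000023456.14, chr6:124810586-124814296, − strand) measured 434, 478 and 463 CPM in WT total libraries and 493, 525 and 517 CPM in KO total libraries. All KO values lay above all WT values, by 0.16 on the log2 scale (limma adjusted p = 0.0192, SE 0.058). The rise did not pass without WT replicate 1 (adjusted p = 0.147) or without KO replicate 2 (0.0667).

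Enolase, which forms phosphoenolpyruvate, showed no difference that passed the test. Eno1 (ENSMUSG00000063524.13, chr4:150236952-150248879, + strand) measured 148, 158 and 174 CPM in WT total libraries and 156, 168 and 174 CPM in KO total libraries. The ranges overlapped almost wholly (log2 change 0.05, SE 0.0715, limma adjusted p = 0.596).

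Pyruvate kinase makes the ATP of the last glycolytic step, and its muscle-type gene Pkm yields the M1 and M2 forms by alternative splicing, which gene counts do not separate. Pkm (ENSMUSG00000032294.17, chr9:59656368-59679375, + strand) measured 1978, 2125 and 2076 CPM in WT total libraries and 1432, 1575 and 1497 CPM in KO total libraries. The groups were well apart, and Pkm fell by 0.46 on the log2 scale (limma adjusted p = 1.42e-11, SE 0.0404). Lactate dehydrogenase A, Ldha (ENSMUSG00000063229.15, chr7:46845839-46855627, + strand), regenerates the NAD+ that glycolysis uses. It measured 1147, 1292 and 1256 CPM in WT total libraries and 897, 985 and 947 CPM in KO total libraries. Ldha fell by 0.39 on the log2 scale (limma adjusted p = 3.36e-08, SE 0.0492), again without overlap.

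Nascent RNA separated the genes further. Of the 10 genes, 5 fell in 4sU libraries (Hk2, Pfkl, Pfkp, Aldoa and Pkm), Tpi1 rose, and Hk1, Gpi1, Eno1 and Ldha did not pass. Over all genes tested, 28% fell and 28.3% rose. By the stricter rule Aldoa was again the 1 gene called, against 5.27% of all genes called lower. The median change of the 10 genes was -0.16, beside -0.02 over all genes. In 5 genes all KO 4sU libraries lay below all WT 4sU libraries and in 1 above, as did 29.4% and 29.6% of all genes. Their share of all counts, in which abundant genes again weigh most, was 0.242% ± 0.00862 in WT 4sU libraries and 0.191% ± 0.0143 in KO 4sU libraries (SD, n = 3).

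Aldoa measured 564, 576 and 596 CPM in WT 4sU libraries and 294, 324 and 230 CPM in KO 4sU libraries, with KO replicate 3 the lowest. The log2 change was -1.05 (limma adjusted p = 9.2e-14, SE 0.0719), and -0.89 without KO replicate 3, which ended the call by the stricter rule. Pfkp measured 108, 122 and 117 CPM in WT and 68.0, 74.6 and 64.5 CPM in KO. It fell by 0.74 on the log2 scale (limma adjusted p = 3.11e-10, SE 0.0725), with a clear gap between genotypes.

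Pkm nascent RNA measured 407, 442 and 408 CPM in WT and 280, 301 and 270 CPM in KO. Pkm fell by 0.56 on the log2 scale (limma adjusted p = 8.11e-10, SE 0.0575). A gene model on the same strand, Gm49759, shares 334 of the 2599 exon bases of Pkm (12.9%), and reads there could not be given to either gene. Gm49759 held 457, 536 and 375 CPM in WT 4sU libraries and 299.9, 340 and 258 CPM in KO 4sU libraries, so it too was lower in KO. Pfkl fell by 0.49 (limma adjusted p = 2.37e-05, SE 0.0891) and Hk2 by 0.23 (limma adjusted p = 0.000938, SE 0.0563), both with all KO values under all WT values.

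Tpi1 went the other way in nascent RNA. It measured 102, 110 and 113 CPM in WT 4sU libraries and 152, 162 and 119 CPM in KO 4sU libraries, so KO replicate 3 stood only just above the WT values. The log2 change was 0.40 (limma adjusted p = 0.000114, SE 0.083). Ldha measured 289, 323 and 320 CPM in WT and 323, 331 and 280 CPM in KO. The genotypes overlapped, and the fitted difference was 0.0016 on the log2 scale (limma adjusted p = 0.986, SE 0.0656). The nascent changes of Hk1 (0.04, adjusted p = 0.737), Gpi1 (-0.09, 0.294) and Eno1 (0.08, 0.379) were likewise within the spread by limma, although Eno1 reached 0.21 (0.0233) without KO replicate 3.

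**Figure D2:**
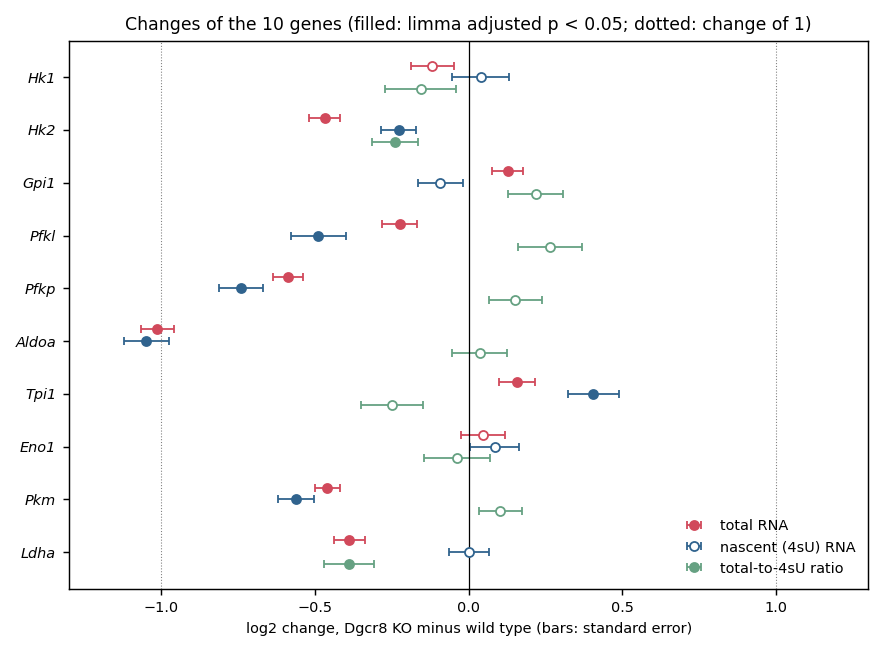
Log2 change between Dgcr8 KO and WT (x axis) of each gene in total RNA, nascent RNA and the total-to-4sU ratio, with standard errors; filled points passed limma at an adjusted p under 0.05. Aldoa lay at -1.01 and -1.05 in total and nascent RNA and at 0.04 in the ratio, while Ldha lay at -0.39, 0.00 and -0.39.

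The ratio of total to 4sU signal measures relative transcript stability, and the genotype effect on it was tested as the interaction of genotype and library type. Of the 10 genes, Ldha and Hk2 had a lower ratio without Dgcr8, and by limma 0 had a higher ratio at an adjusted p under 0.05 (2 at an unadjusted p under 0.05, Gpi1 and Pfkl, with 0 by edgeR and 2 by DESeq2 after adjustment). Over all genes tested, 11.1% fell and 5.02% rose. The stricter rule called 1.76% of all genes and none of the 10, in either direction, of which Ldha had the largest change at -0.39. The median change of the 10 genes was -0.0016, beside -0.09 over all genes.

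Relative to the median gene of each replicate, the log2 ratio of Ldha was 1.91, 1.90 and 1.88 in WT and 1.46, 1.57 and 1.77 in KO. Every KO value lay under every WT value, as in 16.3% of all genes, and the interaction was -0.39 (SE 0.082, limma adjusted p = 0.000947, edgeR 0.00236). It stayed under 0.05 with each alternative tool, scaling, filter and left-out replicate tried. The ratio of Hk2 was 0.37, 0.35 and 0.41 in WT and 0.07, 0.20 and 0.41 in KO, so KO replicate 3 matched the WT values. Its interaction of -0.24 (limma adjusted p = 0.0269, SE 0.0755) was lost without WT replicate 1 (0.0694), WT replicate 3 (0.0535), KO replicate 1 (0.201) or KO replicate 2 (0.0978), and was -0.15 (0.223) with RLE scaling.

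The ratios of Gpi1, Pfkl, Pfkp and Pkm lay higher in all 3 KO replicates than in all 3 WT replicates, a pattern seen in 16.7% of all genes, with interactions of 0.22, 0.26, 0.15 and 0.10 that did not pass (limma adjusted p = 0.0953, 0.0865, 0.26 and 0.363). With RLE scaling those of Gpi1 and Pfkl passed, at 0.31 (0.0169) and 0.35 (0.0204), and with a replicate block that pairs the total and 4sU libraries of a sample they passed at 0.22 (0.0398) and 0.27 (0.0299). Tpi1 had an interaction of -0.25 (0.095), which reached -0.40 (0.00241) without KO replicate 3 and passed at -0.25 (0.0253) with the same block. Of the 3 genes with the seed site AGCACTT, Ldha had the lower ratio just described, whereas Hk1 (-0.16, limma adjusted p = 0.404) and Pfkp (0.15) did not pass. Aldoa (0.04, 0.842) and Eno1 (-0.04, 0.859) differed by less than their standard errors.

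Setting the changes of a gene side by side, Aldoa, Pfkp, Pkm and Pfkl fell in total and nascent RNA. Their ratio changes did not pass in the main limma fit. That of Pfkl, a higher ratio, passed with DESeq2 (0.36, adjusted p = 0.0173), RLE scaling, upper-quartile scaling (0.33, 0.0333) and the block described above. For Ldha the fall in total RNA stood beside an overlapping nascent level and a lower ratio. For Hk2 all measures were lower. These 3 measures share libraries and are not independent of each other.

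**Figure D3:**
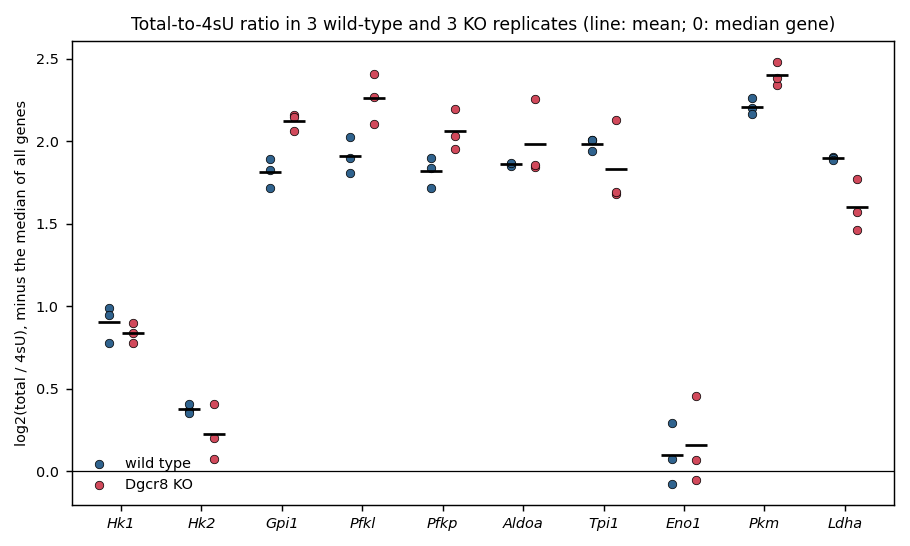
Log2 total-to-4sU ratio minus that of the median gene (y axis) for each gene in 3 WT and 3 KO replicates, with a line at the mean. Pkm had the highest mean in both genotypes, at 2.21 and 2.40, and Eno1 the lowest, at 0.10 and 0.16.

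Most of the 10 transcripts were among those with the highest total-to-4sU ratio. In WT cells 7 of them (Gpi1, Pfkl, Pfkp, Aldoa, Tpi1, Pkm and Ldha) had a fitted ratio between the percentiles 96.7 and 99.1 of all genes tested. Pkm was highest, with a mean log2 ratio of 2.21 ± 0.0488 over the median gene (SD, n = 3). The hexokinases stood apart, Hk1 at 0.91 ± 0.113 (percentile 78.6) and Hk2 at 0.38 ± 0.0288 (61.6). Eno1, at 0.10 ± 0.186, lay at percentile 53.0. In KO cells Ldha stood at percentile 93.7, compared with 97.4 in WT, and Pfkl at 99.1, compared with 97.6. The ratio has no absolute scale, and pairing of total and 4sU libraries rests on their shared replicate number.

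Per exon length, the order in WT total RNA was Aldoa, Pkm, Ldha, Tpi1, Gpi1, Pfkp, Hk2, Pfkl, Eno1 and Hk1, a range of 33.7-fold. Aldoa measured 997 ± 33.6 CPM per kb of exon, Pkm 793 ± 28.9, Ldha 650 ± 39.8 and Tpi1 260 ± 12.4 (SD, n = 3). Each of these was separate from its neighbour. Gpi1 followed at 135 ± 8.3 CPM per kb, while Pfkp (101 ± 1.94), Hk2 (97.5 ± 4.11) and Pfkl (88.4 ± 6.17) overlapped in turn. Eno1 (62.8 ± 5.09) and Hk1 (29.6 ± 3.5) closed the order.

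In KO total RNA the range narrowed to 21.1-fold. Pkm led at 578 ± 27.6 CPM per kb, and Ldha (498 ± 23.3) and Aldoa (495 ± 25.0) could no longer be separated on this scale. Pfkl (75.7 ± 1.45) now stood above Hk2 (70.6 ± 2.49) and Pfkp (67.5 ± 1.62), and the latter pair overlapped. In 4sU libraries, Aldoa led at 258 ± 7.27 CPM per kb in WT and Ldha at 164 ± 14.5 in KO. Hk2, seventh by total RNA, was the fourth gene of the order in WT nascent RNA at 70.5 ± 1.91 CPM per kb.

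**Figure D4:**
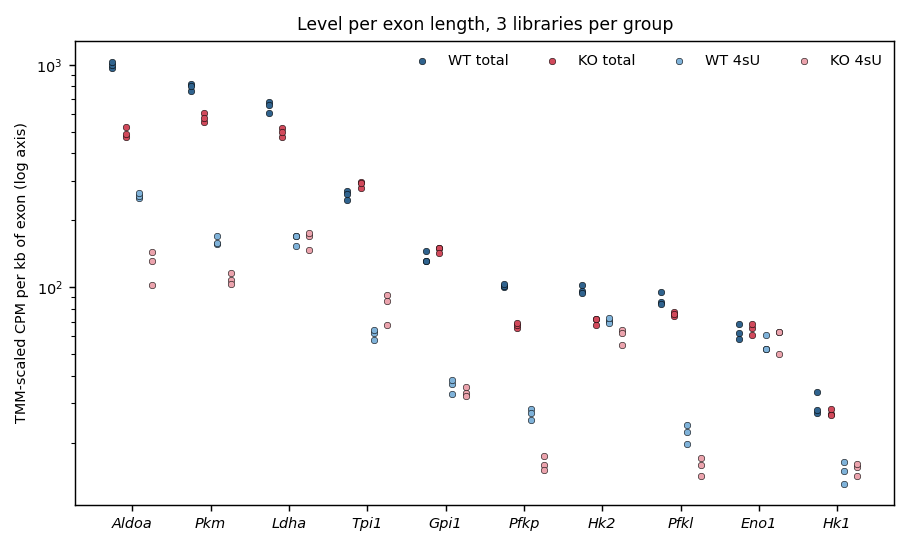
TMM-scaled CPM per kb of exon (log axis) for each gene in the 3 libraries of each group, ordered by the WT total mean. Aldoa stood at 997 CPM per kb in WT total and 495 in KO total libraries, and Hk1 had the lowest mean in every group.

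Levels of genes with near-identical copies were read with their mappability, because reads of 50 bases were kept only where they mapped to 1 place. Of the 50-base windows of a representative transcript, 100% were free of matches in other annotated transcripts for Hk1, Hk2 and Pfkp, 99.9% for Pfkl, 92.5% for Tpi1, 86.5% for Aldoa, 83.4% for Ldha, 80.4% for Gpi1 and 69.5% for Pkm. Eno1 stood apart at 27.8%, with 8 pseudogenes and the near-identical Eno1b sharing its windows. Ldha shared windows with 14 pseudogenes, Pkm with 7 and Aldoa with 5. Counts given to those pseudogenes were few in WT total libraries. They made up between 0.073% and 3.13% of the reads of gene and pseudogenes together for Gpi1, Aldoa, Eno1, Pkm and Ldha. Eno1b, which is not a pseudogene, held 273 counts there, beside 3740 of Eno1. Reads that mapped to several places were not counted, so these values do not measure how many were lost.

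Counted per kb of unshared windows instead of exon, Eno1 rose from 62.8 to 291 CPM per kb in WT total RNA and from the ninth to the fifth place, and the first 4 places were unchanged. That scale also uses the length of 1 representative transcript in place of all exons, and it altered the leading order in the other groups. In KO total RNA, Aldoa (820 to 904 CPM per kb) then lay above Ldha (610 to 669) and overlapped Pkm (865 to 951). In KO 4sU libraries the mean of Eno1 (271 ± 33.8) then stood above those of Aldoa (218 ± 36.9) and Ldha (211 ± 18.6). The values of Eno1 and Aldoa overlapped there. In WT 4sU libraries Eno1 (256 ± 22.5) took the second place by its mean after Aldoa (446 ± 12.6), and its values overlapped those of Pkm (253 ± 11.8). The levels of Eno1 are therefore uncertain, and its WT-to-KO comparison, which uses the same windows in all libraries, rests on 949 to 1496 counts per total library. The gene with the lowest unshared share among the 10 was also the one with the lowest total-to-4sU ratio. The fully unshared hexokinases had the next lowest ratios, whereas Pfkp, also fully unshared, had a mean log2 ratio of 1.82 over the median gene in WT. Outside the 10, Gapdh (17.5% unshared) had -3.04 and Pgk1 (32%) 1.41 in WT. Whether lost reads contribute to the ratio of Eno1 was not tested.

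Genes for the remaining steps of the chain also share windows with pseudogenes, Pgk1 with 5, Pgam1 with 4 and Gapdh with many more. Gapdh, glyceraldehyde-3-phosphate dehydrogenase, had 17.5% unshared windows, 213 pseudogenes with shared windows, and only 45, 68 and 42 counts in WT total libraries and 33, 24 and 25 in KO total libraries. Its pseudogenes held more counts than the gene itself, 83.7% of the joint total in WT. It fell by 0.89 on the log2 scale (limma adjusted p = 0.021), which did not pass without WT replicate 1 (0.0503), WT replicate 2 (0.0608), KO replicate 1 (0.0506) or KO replicate 2 (0.0524). Phosphoglycerate kinase Pgk1 fell by 0.81 (limma adjusted p = 4e-07) and phosphoglycerate mutase Pgam1 by 0.53 (8.11e-05), with 32% and 58.5% unshared windows. The levels of all 3 genes are therefore uncertain.

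Around the chain, 55 of 69 listed genes of glucose metabolism and its control were tested, of which 26 fell and 17 rose in total RNA, with a median of -0.22. Over all genes 36.7% fell and 27.2% rose, the background for each list that follows. Among genes for other isozymes, 3 of 7 tested fell and 3 rose. Ldhb, the heart-type subunit that partners Ldha, fell by 1.62 on the log2 scale (limma adjusted p = 1.83e-15), the bisphosphoglycerate mutase gene Bpgm by 1.28 (9.44e-08) and the neuronal enolase Eno2 by 1.25 (2.58e-05). Aldoc, the brain aldolase, rose by 0.64 (4.92e-07) and Eno3, the muscle enolase, by 0.56 (2.02e-05). Per exon length Ldhb was 0.0857-fold Ldha in WT total RNA and 0.0366-fold in KO total RNA (exact permutation p = 0.1, two-sided).

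Of the genes for glucose and lactate transport, all 5 tested fell in total RNA, against 36.7% of all genes, with a median of -0.72. They are 4 carriers and Bsg, which encodes the chaperone of the lactate carriers. Slc2a3, encoding the high-affinity glucose transporter GLUT3, measured 1835, 1943 and 1913 CPM in WT total libraries and 997, 1016 and 1037 CPM in KO total libraries. It fell by 0.90 on the log2 scale (limma adjusted p = 7.92e-19, SE 0.0401). Slc2a1, encoding GLUT1, measured 161, 170 and 177 CPM in WT and 98.2, 112 and 99.2 CPM in KO, a fall of 0.72 (limma adjusted p = 1.1e-11, SE 0.0626). The lactate exporter gene Slc16a1 fell by 0.87 (2.02e-15), and no KO library of these 3 genes reached its WT range. In the stability test the 4 carriers had a lower ratio and Bsg did not pass, with Slc2a1 at -0.46 (limma adjusted p = 0.000348), Slc16a1 at -0.37 (0.00129) and Slc2a3 at -0.37 (0.00012), against 11.1% of all genes.

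Genes that direct sugar away from or beyond glycolysis moved both ways. Of 5 tested genes that set the fructose bisphosphate activator of phosphofructokinase, 2 rose, 0 fell and 3 did not pass in total RNA. In nascent RNA 3 of the 5 rose, and 2 had a lower total-to-4sU ratio. The rises in total RNA were those of Pfkfb2 by 0.95 (limma adjusted p = 2.52e-05) and of Tigar by 0.17 (0.0116), the latter not passing without WT replicate 1 (0.105). Of 13 tested genes of pyruvate entry into mitochondria, 5 rose and 6 fell in total RNA. Pdk1, the kinase that inhibits pyruvate dehydrogenase, measured 57.5, 71.8 and 66.3 CPM in WT total libraries and 186, 213 and 214 CPM in KO total libraries. Its rise of 1.64 (limma adjusted p = 1.57e-18, SE 0.0748) was opposite to the falls of Pdk2 (-0.90, 0.00197) and of the opposing phosphatases Pdp1 (-0.77, 0.000149) and Pdp2 (-0.33, 4.38e-06). The pyruvate carrier subunits Mpc2 and Mpc1 rose by 0.54 (0.000107) and 0.69 (0.0495), and Mpc1 did not pass without WT replicate 1 (0.219), WT replicate 3 (0.0814), KO replicate 1 (0.156) or KO replicate 2 (0.0676).

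In the pentose phosphate pathway, which branches off after hexokinase, 3 of 7 genes rose and 3 fell. Rpia, which makes ribose phosphate, rose by 1.63 (limma adjusted p = 1.59e-13), and the dehydrogenases of the oxidative branch Pgd and G6pdx rose by 0.76 (4.49e-11) and 0.24 (0.00303). The lactonase gene Pgls (-0.74, 2.32e-10) and the non-oxidative Taldo1 (-0.74, 1.48e-14) and Tkt (-0.33, 6.78e-08) fell. Of 4 tested gluconeogenesis genes, Fbp2 (-1.43, limma adjusted p = 1.42e-11) and Pcx (-0.61, 3.13e-06) fell and 2 did not pass.

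**Figure D5:**
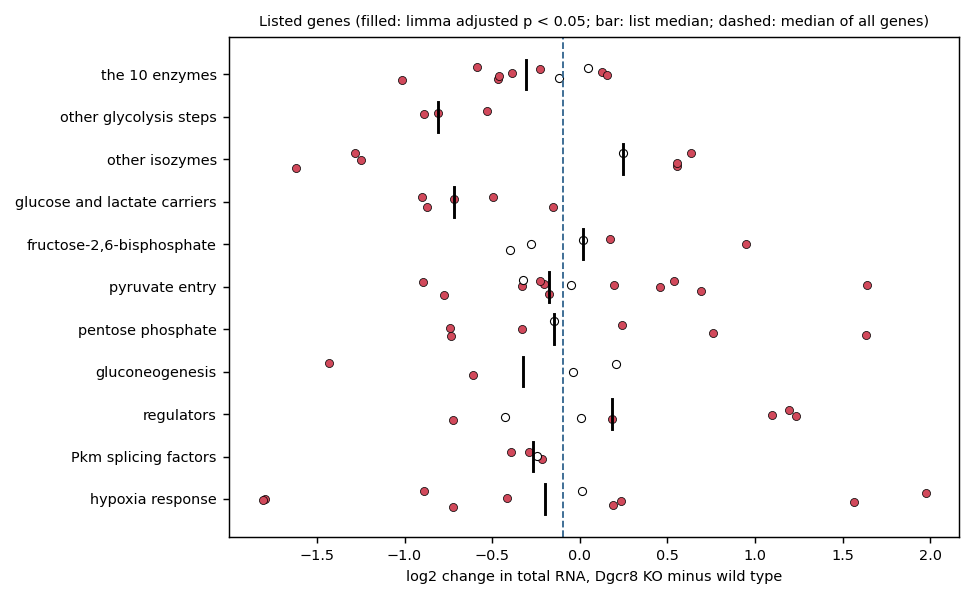
Log2 change in total RNA between Dgcr8 KO and WT (x axis) for the tested genes of each list (rows), with list medians as bars and the median of all genes dashed. The transport genes lay wholly under 0 (median -0.72), and the 10 enzymes had a median of -0.31 beside -0.09 for all genes.

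Among transcription factors that act on glycolysis genes, 4 of 7 rose and 1 fell in total RNA, against 27.2% and 36.7% of all genes. Hif1a, the oxygen-sensitive subunit that activates many glycolysis genes, measured 229, 240 and 226 CPM in WT total libraries and 135, 147 and 139 CPM in KO total libraries. It fell by 0.72 on the log2 scale (limma adjusted p = 1.86e-13, SE 0.053). Its relative Epas1 rose by 1.23 (6.3e-15), and Mycn rose by 1.10 (8.19e-16). Myc held only 3 to 7 counts in each total library, and its difference there did not pass (-0.43, limma adjusted p = 0.501), whereas its nascent RNA fell by 0.92 (7.79e-05), from 57 to 91 counts in WT to 32 to 45 counts in KO 4sU libraries.

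Mbd2, which encodes a repressor that binds methylated CpG, measured 25.0, 23.3 and 24.6 CPM in WT total libraries and 51.8, 58.0 and 57.7 CPM in KO total libraries. It rose by 1.20 (limma adjusted p = 1.69e-13, SE 0.087), with a ratio change of 0.56 (0.00344). Of 4 factors that splice the M2 exon of Pkm, 3 fell: Srsf3 by 0.39 (5.03e-08), Ptbp1 by 0.29 (1.62e-06) and Hnrnpa2b1 by 0.22 (0.000327).

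Genes of the hypoxia response did not move one way, since 4 of 10 tested rose and 5 fell, against 27.2% and 36.7% of all genes. Ankrd37 (-1.81, limma adjusted p = 9.61e-08), Vegfa (-1.79, 1.11e-17) and Egln1 (-0.89, 3.82e-10) had the largest falls of the list. Ndrg1 (1.98, 3.46e-17), Egln3 (1.56, 2.66e-09) and P4ha1 (0.24, 0.0037) had its largest rises, P4ha1 not passing without WT replicate 1 (0.0573).

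Over the 12 libraries, genes outside these lists with profiles among the most like the mean profile of the 10 enzymes were Rps14 (Pearson r = 0.999), Atp5c1 (0.998), 2610507B11Rik (0.998) and Glb1 (0.998), of 13943 genes compared. The mean profile ranged from 0.86 to 1.00 on the centred log2 scale in WT total, 0.59 to 0.67 in KO total, -0.72 to -0.60 in WT 4sU and -1.05 to -0.84 in KO 4sU libraries. The correlation is a description over libraries of 2 types that differ mainly between total and 4sU RNA.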

How the data were processed

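RNA-seq of 12 libraries from mouse ESCs was analysed from the table of whole-number read counts per gene that the authors deposited, which were not normalized. Per the submitters' processing notes and the file header, reads were trimmed with cutadapt 1.14, mapped uniquely with STAR 2.5.3a to mm10 and counted over exons with featureCounts 1.5.3 at strand setting 2, so antisense genes were counted apart. The single-end reads of 50 bases carried no molecular identifiers, and the kit was of 2 kinds, without a statement of which library used which. Depth was 4593914 to 9295245 counts per library, and floors cover counting error only.

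Of 51559 rows, 92 were spike-ins and 51274 identifiers matched GENCODE M21. Genes with at least 3 CPM in at least 3 libraries (14033) were scaled by TMM (edgeR 4.0.16) and fitted with voom weights in limma 3.58.1 (R 4.3.3) in 1 model with terms for genotype, library type and the interaction between them, with Benjamini-Hochberg adjustment over all genes tested. Genes were counted at an adjusted p under 0.05 and, by a stricter rule, also at an absolute log2 change over 1. Log2 ratios per replicate used CPM plus 1. The fit was tested on simulated data, where it found 80.2% of 2-fold changes in total RNA and 49% in the ratio. Of 4-fold changes it found 99% and 94.8%. False calls numbered 5 and 9 among 13422 genes. Alternatives were the edgeR quasi-likelihood test, DESeq2 1.42.0, limma-trend, other scalings and filters, replicate blocks and left-out replicates. Centring on the median of all genes, and the isozyme ratios with their exact permutation tests (scipy 1.17.1), were added after the data were seen.

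Shared 50-base windows were sought in the other annotated transcripts of GENCODE M21, since no genome sequence was used here, and within 1 representative transcript a gene. The members and lists were chosen with earlier results of these data known. Genes named were Dgcr8, the 10 enzymes, Gapdh, Pgk1, Pgam1, Slc2a1, Slc2a3, Myc, Hif1a, Mbd2, up to 3 of the largest rises and falls in total RNA of each other list at an adjusted p under 0.05, and the 5 genes outside the lists whose profile was most like the mean of the 10, of which 1 is not reported here. Gm49759 and the marker genes were named for their overlap or role. Total and 4sU libraries of the same number were taken as a pair, since the labels describe each RNA sample as split, although their deviations correlated only between 0.0203 and 0.133. All libraries of a group differed beyond counting noise, so none was a copy of the counts of another. This comparison cannot tell separate cultures from separate preparations of the same sample. Every per-sample column of the table was used.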

Additional observations from a re-analysis of the deposited data

Results flagged for a closer look

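The genotype effect differed between total and nascent RNA, by the interaction term of the limma model at an adjusted p under 0.05, for 2 of the 10 enzymes, both with a lower total-to-4sU ratio in KO: Ldha by -0.39 (adjusted p = 0.000947) and Hk2 by -0.24 (0.0269). Dgcr8 itself had an interaction of -1.09 (3.11e-08), with a nascent change of -0.51 beside -1.60 in total RNA. Of the ESC markers named, Nanog had -0.34 (0.000193) and Sox2 -0.19 (0.0322, edgeR 0.0941). Among the other pathway genes named, the interaction was -0.46 for Slc2a1 (0.000348), -0.37 for Slc2a3 (0.00012), -0.37 for Slc16a1 (0.00129) and -0.26 for Tigar (0.0294). It was -0.56 for Pgls (0.00246), -0.60 for Ndrg1 (0.00768), 0.56 for Mbd2 (0.00344) and 0.71 for Rpia (0.00562). Tigar did not pass without WT replicate 2 (0.18), KO replicate 1 (0.108) or KO replicate 2 (0.11), nor with DESeq2 (-0.18, 0.227), RLE scaling (0.193), upper-quartile scaling (0.119) or no filter beyond 1 count (0.0965). Without WT replicate 3, Rpia (0.0605) and Ndrg1 (0.0623) did not pass. With 3 libraries a group, single libraries that stand apart were not tested for.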

How the results depend on the processing

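Of 460 alternative values for the total, nascent and total-to-4sU changes of the 10 enzymes, 411 kept their direction and their side of an adjusted p of 0.05. The 6 falls in total RNA and the 5 in nascent RNA passed with every tool, scaling, filter, block and left-out replicate tried, while the other counts were less stable. The 2 rises in total RNA were 1 with edgeR and 0 with limma-trend, and 0 to 2 with a replicate left out. The 1 call in total RNA by the stricter rule, Aldoa, was 0 with DESeq2, RLE scaling, upper-quartile scaling, library size only, no filter beyond 1 count and 3 CPM in all 12 libraries, and 0 to 1 with a replicate left out. That in nascent RNA was also 0 to 1 with a replicate left out. With no limit on the change, 8 genes passed in total RNA, 6 in nascent RNA and 2 in the ratio. The rises in nascent RNA numbered 1 to 2 with a replicate left out.

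In the ratio, the 2 lower genes became 1 with DESeq2, limma-trend, RLE scaling, upper-quartile scaling and no filter beyond 1 count, and 1 to 3 with a replicate left out. The 0 higher genes became 2 with DESeq2, RLE scaling and upper-quartile scaling, and 2 with a replicate block by culture, which also added Tpi1 to the lower genes and changed no other call of the 10. The median ratio change of the 10 genes, near 0, turned to 0.0825 with DESeq2, 0.0051 with limma-trend, 0.0883 with RLE scaling, 0.0645 with upper-quartile scaling, 0.0223 with library size only, 0.0065 with no filter beyond 1 count, 0.011 with 3 CPM in all 12 libraries, 0.0015 with the replicate block and 0.09 relative to all genes, and ran from -0.1284 to 0.0753 with a replicate left out. The median total change was -0.2541 with library size only and -0.2127 relative to all genes.

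Values near 0 changed sign. The nascent change of Ldha was -0.0548 with DESeq2, -0.0005 with limma-trend, -0.0563 with RLE scaling, -0.0478 with upper-quartile scaling and -0.0014 with the replicate block, and -0.0578 to 0.0946 with a replicate left out. That of Hk1 was -0.0196, -0.0192 and -0.0109 with DESeq2, RLE and upper-quartile scaling and -0.0437 to 0.107 with a replicate left out. The ratio change of Eno1 was 0.052, 0.0508 and 0.027 with the same settings, 0.0527 relative to all genes and -0.1895 to 0.0561 with a replicate left out, and that of Aldoa ran from -0.1038 to 0.0948. The total change of Eno1 ran from -0.0128 to 0.1002. The cause was not tested.

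Across genotypes, replicate numbers did not pair the libraries, since deviations of same-numbered WT and KO libraries correlated between -0.103 and 0.0904. With the replicate block, counts stayed at 6 lower and 2 higher in total RNA, 5 and 1 in nascent RNA and 2 and 0 in the ratio, and Mpc1 alone among the named genes lost its call in total RNA (adjusted p = 0.0529). Depth limits Gapdh and Myc, with at most 68 and 7 counts in a total library, among other genes.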
